A study of Mus musculus with 11 samples.

Results

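Ccl2, Ccl7, Ccl12, Ccl3, Ccl4, Ccl6, Ccl9, Cxcl2, Cxcl10 and Cxcl16 are chemokine genes that myeloid cells can express, and they were followed across 11 libraries of mouse brain microglia-like cells. They were taken by gene symbol and are 10 of the 24411 genes in each count table. The study transplanted hematopoietic stem and progenitor cells into mice and compared routes of delivery. The routes are intravenous (IV), into the cerebral ventricles (ICV) and intrathecal lumbar (ITL). From each route, 3 sorted brain myeloid populations were sequenced, which the labels call CD45.1 µ, CD45.2 µ and CD45.1 TAµ. CD45.1 and CD45.2 are alleles of a leukocyte surface antigen that tell apart cells of different mice in a transplant, and the labels do not say which of them the recipients carried. TAµ is not spelled out in the labels. These 9 libraries form the complete layout of 3 routes by 3 populations, with 1 library in each combination. Outside that layout stand 1 library labelled ICV CD45.2 PBS and 1 labelled CTR µ, which has a control treatment and no CD45 genotype. The labels give no age, strain, disease genotype or animal number for any library, and the design text lists several schemes of transplanted cells without saying which scheme each library had.

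Chemokines are small secreted proteins that bind G-protein-coupled receptors and steer leukocyte migration. CCL2, CCL7 and CCL12 act on CCR2, the receptor that draws monocytes out of the blood. CCL3 and CCL4, the macrophage inflammatory proteins, attract monocytes and T cells, CCL3 in part through CCR1. CCL6 and CCL9 are ligands of CCR1. CXCL2 acts on CXCR2 and attracts neutrophils, CXCL10 acts on CXCR3 of activated T and NK cells, and CXCL16 is made as a membrane-anchored protein that binds CXCR6. In the brain, microglia are a known source of CCL3 and CCL4, and several of these genes are switched on quickly by inflammatory stimuli through NF-kB or interferon signalling.

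The sequence just before the start site was examined for the members with an entry in the RefSeq promoter table of build GRCm38.p6, which are Ccl12, Ccl3, Ccl6, Ccl9, Cxcl2 and Cxcl10. No window was listed for Ccl2, Ccl7, Ccl4 and Cxcl16. Of the 6 windows, 5 are printed below. On library totals Cxcl2, Ccl3, Ccl6 and Ccl9 each had groups of 3 libraries that did not overlap in at least 1 contrast, and Cxcl10 varied together with Cxcl2. They cover the 250 bases upstream of the start, 5′ to 3′ on the strand of the gene. They lie at chr5:90903649-90903898 on the plus strand (Cxcl2), chr5:92348890-92349139 on the minus strand (Cxcl10), chr11:83649379-83649628 on the minus strand (Ccl3), chr11:83593088-83593337 on the minus strand (Ccl6) and chr11:83578637-83578886 on the minus strand (Ccl9). Capitals mark matches to 3 motifs searched on both strands.
Cxcl2: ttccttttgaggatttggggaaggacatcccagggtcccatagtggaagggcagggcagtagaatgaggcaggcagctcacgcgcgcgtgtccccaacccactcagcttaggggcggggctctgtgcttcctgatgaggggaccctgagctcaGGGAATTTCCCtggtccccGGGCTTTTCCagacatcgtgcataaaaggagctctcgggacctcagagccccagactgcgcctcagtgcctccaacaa
Cxcl10: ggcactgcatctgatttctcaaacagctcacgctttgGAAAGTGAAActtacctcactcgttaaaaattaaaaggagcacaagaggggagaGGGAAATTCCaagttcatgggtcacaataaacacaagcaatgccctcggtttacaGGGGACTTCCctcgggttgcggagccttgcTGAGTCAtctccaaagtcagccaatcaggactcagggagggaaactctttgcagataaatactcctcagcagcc
Ccl3: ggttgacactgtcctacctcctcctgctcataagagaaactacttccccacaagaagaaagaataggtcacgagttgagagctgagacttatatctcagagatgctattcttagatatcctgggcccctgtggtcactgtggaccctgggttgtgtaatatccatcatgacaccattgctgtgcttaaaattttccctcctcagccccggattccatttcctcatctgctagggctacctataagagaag
Ccl6: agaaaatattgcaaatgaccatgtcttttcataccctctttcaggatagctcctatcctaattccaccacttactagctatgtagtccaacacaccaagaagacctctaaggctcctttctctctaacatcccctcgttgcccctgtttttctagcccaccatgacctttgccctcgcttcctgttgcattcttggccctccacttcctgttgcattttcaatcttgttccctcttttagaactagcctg
Ccl9: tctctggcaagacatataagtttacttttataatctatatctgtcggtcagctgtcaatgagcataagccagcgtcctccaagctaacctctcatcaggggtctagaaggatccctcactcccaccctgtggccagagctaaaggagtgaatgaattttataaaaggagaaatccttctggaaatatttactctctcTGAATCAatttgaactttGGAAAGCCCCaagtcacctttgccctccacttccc
The kappa-B motif was searched as GGG and TTCC with any 3 bases between them, the AP-1 motif as TGA and TCA with any 1 base between them, and the interferon-stimulated response element as GAAA and GAAA with any 2 bases between them. They occur in 4.65%, 6.75% and 2.98% of the 32851 windows of this length in the table. The Cxcl2 window held 3 kappa-B matches, of which 2 overlap on opposite strands. The Cxcl10 window held 2 kappa-B matches, 1 AP-1 match and 1 interferon-stimulated response element. The Ccl9 window held 1 kappa-B and 1 AP-1 match, and the windows of Ccl3, Ccl6 and Ccl12 held none of these letters.

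The libraries held 6090589 to 21282823 counts in genes, and levels are given as CPM, the count scaled to a library total of 1000000. Between 6.98% and 25.1% of the counts lay in Rn45s, the ribosomal RNA precursor. The IV CD45.2 µ library detected 10477 genes and the ICV CD45.1 µ library 11456, the fewest of all. All 12 microglia markers examined had counts in every library, at a summed 13110 to 25168 CPM in the 9 libraries and 35783 CPM in CTR µ. Markers of neutrophils summed to 14643 CPM in IV CD45.1 µ against 505 to 4742 CPM in the other 8 libraries. Xist, the X-inactivation RNA of female cells, stood at 4028 to 6399 CPM in the CD45.2 µ libraries and at 12.3 to 429 CPM in the CD45.1 TAµ libraries. In the CD45.1 µ libraries Xist was at 295 CPM (IV), 1369 CPM (ITL) and 6291 CPM (ICV), so the library labelled ICV CD45.1 µ had the Xist level of the CD45.2 µ libraries together with 82.0 CPM over 4 Y-linked genes. CTR µ had no Xist count. IV CD45.2 µ, with Xist at 4028 CPM, had 45.8 CPM over the same Y-linked genes. Sex is not in the labels, and the population contrasts cannot be told apart from this difference in Xist between populations. In CD45.1 µ cells Xist also differed between routes, so the route contrasts carry part of it.

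All 10 genes had counts in every library and passed the filter on low counts. Their summed level was 2176 to 2780 CPM in the 3 IV libraries. It was 1262 to 2145 CPM in the 3 ICV libraries and 1512 to 1687 CPM in the 3 ITL libraries. On library totals the IV libraries thus lay above all others of the layout, but IV CD45.1 µ (2176 CPM) only narrowly above ICV CD45.2 µ (2145 CPM). After TMM scaling the mean log2 CPM of the 10 genes did not separate them. It was 6.80 in IV CD45.1 µ, 6.76 in IV CD45.2 µ and 7.28 in ICV CD45.2 µ. Per kilobase of exon, which allows genes to be compared, Ccl4 and Ccl3 were the highest, at 454 ± 214 and 437 ± 134 CPM per kb (SD, n = 9 libraries). Ccl12 (247 ± 50.1) and Cxcl2 (224 ± 130) followed, then Cxcl16 (128 ± 37.9), Ccl2 (65.2 ± 16.8), Ccl7 (58.8 ± 33.0), Ccl6 (36.0 ± 14.5), Cxcl10 (32.3 ± 11.7) and Ccl9 (11.5 ± 6.24). Neighbours in this order differed by less than the larger of their SDs, except for Ccl3 and Ccl12, Cxcl16 and Ccl2, and Cxcl10 and Ccl9. Exon lengths came from the GENCODE annotation of GRCm38, an older build than that of the counts. Within a gene, the highest of the 9 libraries exceeded the lowest 6.41-fold for Ccl7 and 6.32-fold for Ccl9, 4.67-fold for Cxcl2 and 4.08-fold for Ccl6, and between 2.22-fold (Ccl12) and 3.45-fold (Cxcl10) for the other 6.

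**Figure D1:**
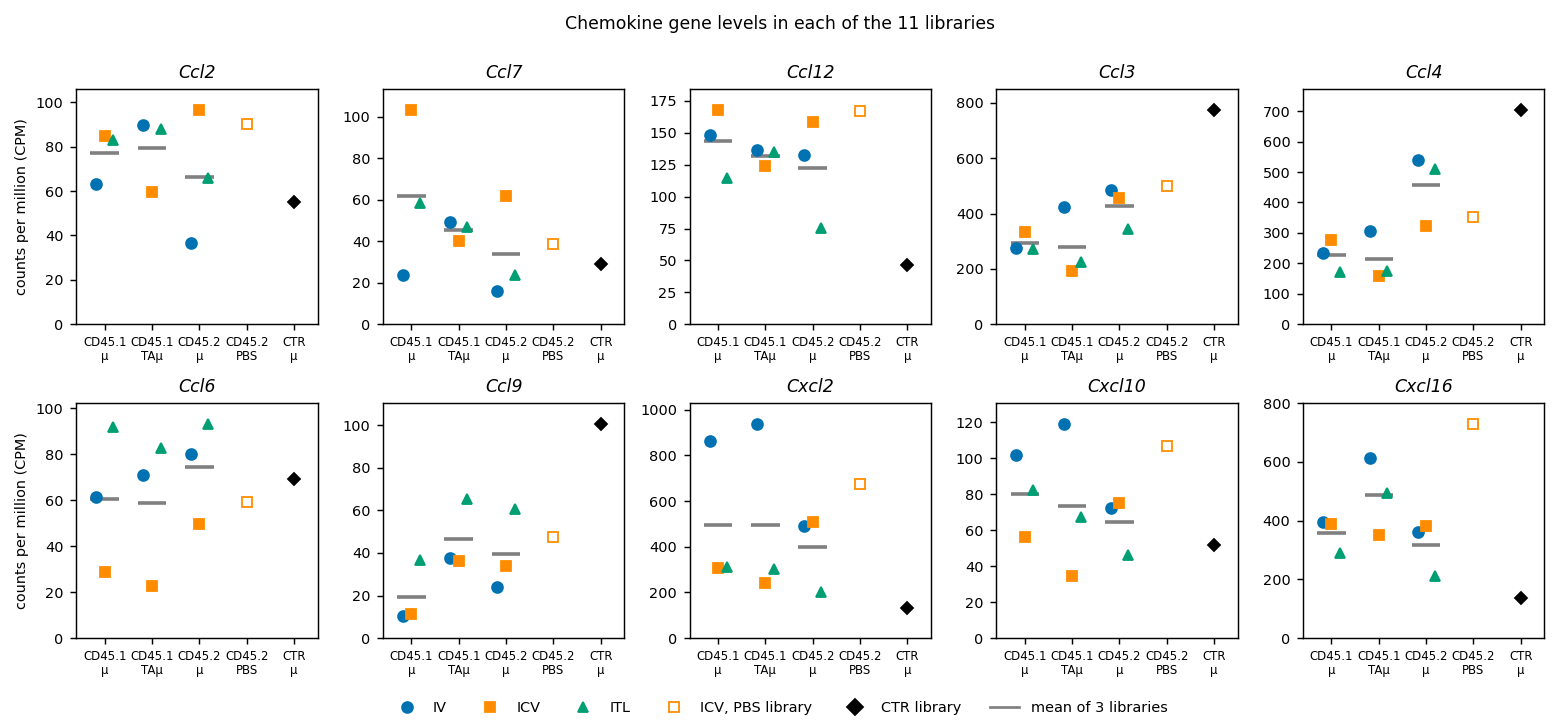
Level of each chemokine gene in each library, in CPM (vertical axis, from 0), by sorted population (horizontal axis) with routes as symbols and bars for the mean of 3 libraries. Cxcl2 is highest in 2 of the IV libraries, Ccl6 is lowest in the 3 ICV libraries, Ccl4 is higher in the 3 CD45.2 µ than in the 6 CD45.1 libraries, and CTR µ stands above all for Ccl3, Ccl4 and Ccl9.

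Each contrast was read from an edgeR quasi-likelihood fit with route and population as additive terms over the 9 libraries, with Benjamini-Hochberg adjustment over 13339 genes. A population contrast thus compares 3 libraries with 3, 1 pair within each route, and a route contrast compares 1 pair within each population. No chemokine gene passed an adjusted p of 0.05 in any of the 6 contrasts. Among all genes, the share called was 0.075% (CD45.1 TAµ against CD45.1 µ), 0.03% (CD45.2 µ against CD45.1 µ) and 0.345% (CD45.1 TAµ against CD45.2 µ) in the population contrasts, and 0.217% for ITL against IV and 0% for ICV against IV and for ITL against ICV. At an unadjusted p under 0.05 the fit counted 2, 3 and 3 of the 10 genes in the population contrasts, in that order, and 3, 2 and 2 in ICV against IV, ITL against IV and ITL against ICV. Over all genes those unadjusted shares were 5.36%, 8.79%, 6.75%, 9.22%, 5.35% and 3.79%. DESeq2 called 1 of the 10 genes in each population contrast and in ITL against IV, and none in the other pair of contrasts. Among all genes DESeq2 called 1.63%, 2.08% and 1.45% in the population contrasts, 1.12% in ITL against IV, 1.1% in ICV against IV and 0.24% in ITL against ICV. By limma-voom 1 of the 10 genes was called in CD45.1 TAµ against CD45.2 µ and 1 in ITL against IV, beside 0.982% and 0.802% of all genes. The contrasts share libraries and are not independent of each other. Since a library is a bulk of sorted cells, fewer expressing cells and less RNA per cell cannot be told apart.

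**Figure D2:**
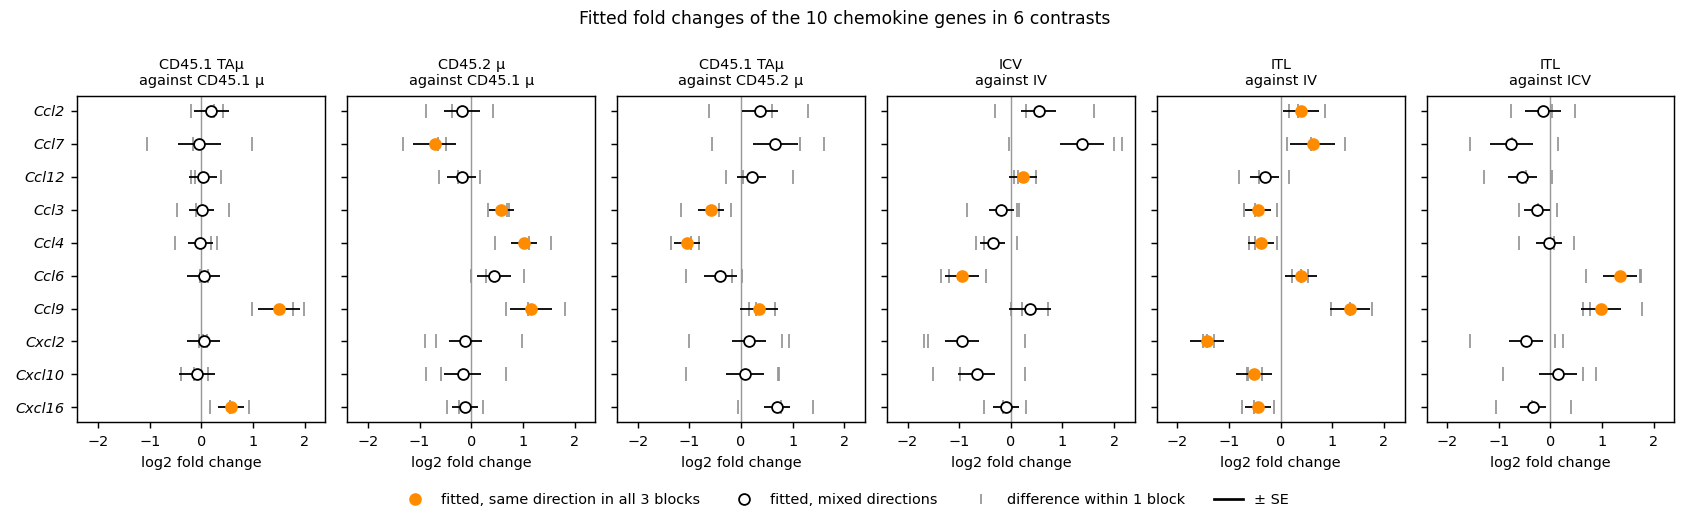
Fitted log2 fold change (horizontal axis) with its standard error for each chemokine gene (vertical axis) in each of the 6 contrasts; small ticks are the differences within each of the 3 blocks, and filled points mark genes with the same direction in all 3 after TMM scaling. In ITL against IV, 9 of the 10 genes are filled, with Cxcl2 the lowest at -1.42 and Ccl9 the highest at 1.34.

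Among the CCR2 ligands, Ccl2 overlapped between all groups, Ccl7 was lower in CD45.2 µ than CD45.1 µ cells of the same route, and Ccl12 varied least of the 10 genes. Ccl2, the main monocyte attractant, stood at 63.2, 84.8 and 82.9 CPM in the CD45.1 µ libraries of the IV, ICV and ITL routes, at 89.9, 59.8 and 88.1 CPM in the CD45.1 TAµ libraries and at 36.6, 96.3 and 65.8 CPM in the CD45.2 µ libraries, each in the same order of routes. The lowest and the highest value both came from CD45.2 µ cells, and every pair of groups overlapped. Ccl7, a second CCR2 ligand encoded next to Ccl2, was at 23.6, 103 and 58.6 CPM in CD45.1 µ, at 49.4, 40.1 and 47.1 CPM in CD45.1 TAµ and at 16.1, 61.8 and 24.0 CPM in CD45.2 µ. On library totals its 2 lowest libraries were IV libraries, but IV CD45.1 µ (23.6 CPM) and ITL CD45.2 µ (24.0 CPM) were nearly equal. With TMM factors their order turned, at 23.4 and 22.8 CPM. The CD45.1 TAµ values of Ccl7 ranged over 40.1 to 49.4 CPM. In all 3 routes the CD45.2 µ value was below that of CD45.1 µ, with a log2 fold change of -0.71 ± 0.42 (SE; edgeR adjusted p = 0.626). Ccl12 was at 148, 167 and 115 CPM in CD45.1 µ, at 136, 124 and 135 CPM in CD45.1 TAµ and at 132, 159 and 75.5 CPM in CD45.2 µ. This gene is a mouse CCR2 ligand with no direct human counterpart, and its lowest value was that of ITL CD45.2 µ.

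By route, Ccl2 averaged 63.2 ± 26.7 CPM after IV, 80.3 ± 18.7 after ICV and 79.0 ± 11.6 after ITL delivery (SD, n = 3 libraries each). ITL against IV gave 0.40 ± 0.35 (log2, SE) for Ccl2 and 0.62 ± 0.44 for Ccl7, with adjusted p-values of 0.926 and 0.915 by edgeR. With TMM factors both were higher in ITL in all 3 populations, whereas on library totals both were lower in ITL than in IV CD45.1 TAµ cells (88.1 against 89.9 CPM for Ccl2 and 47.1 against 49.4 CPM for Ccl7). ICV against IV gave 1.38 for Ccl7, which was higher in ICV CD45.1 µ and ICV CD45.2 µ than in their IV counterparts and at 40.1 against 49.4 CPM in CD45.1 TAµ. For Ccl12 the same contrast gave 0.24 ± 0.27 (edgeR adjusted p = 0.798), and -0.0013 without the ICV CD45.2 µ library. Ccr2, the receptor of these ligands, ranged from 16.3 to 133 CPM over the 9 libraries and was not called in any contrast.

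The macrophage inflammatory protein genes Ccl3 and Ccl4 were higher in the CD45.2 µ libraries than in every CD45.1 µ library. Ccl4 stood at 234, 277 and 172 CPM in CD45.1 µ after IV, ICV and ITL delivery, at 306, 158 and 176 CPM in CD45.1 TAµ and at 539.6, 323 and 511 CPM in CD45.2 µ. The 3 CD45.2 µ values lay above all 6 CD45.1 values, and the population means were 228 ± 52.8, 213 ± 80.5 and 458 ± 118 CPM (SD, n = 3 libraries each). Against CD45.1 µ, the CD45.2 µ libraries gave a fitted difference of 1.03 ± 0.25 (log2, SE), with an edgeR adjusted p of 0.390. CD45.1 TAµ against CD45.2 µ gave -1.04 ± 0.25, with an edgeR adjusted p of 0.104. DESeq2 called both differences, at adjusted p-values of 0.00524 and 0.00403, and limma-voom called the second at 0.0141. Without the library labelled ICV CD45.1 µ, the edgeR values were 1.31 (adjusted p = 0.474) and -1.04 (adjusted p = 0.0942).

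Ccl3 was at 275, 335 and 271 CPM in CD45.1 µ, at 423, 194 and 227 CPM in CD45.1 TAµ and at 487, 455 and 345 CPM in CD45.2 µ. The CD45.2 µ values were above those of CD45.1 µ, while the IV CD45.1 TAµ value overlapped with CD45.2 µ. The CD45.2 µ against CD45.1 µ contrast gave 0.59 ± 0.24 (edgeR adjusted p = 0.531), and the fit gave -0.58 ± 0.25 (edgeR adjusted p = 0.660) for CD45.1 TAµ against CD45.2 µ. So 2 of the 10 chemokine genes had CD45.2 µ above CD45.1 µ with no overlap, where 4.45% of all genes did, and 1 of 10 (Ccl4) had CD45.1 TAµ below CD45.2 µ, where 4.78% did. The spans of the Ccl3 and Ccl4 genes overlap each other in the RefSeq annotation of GRCm38.p6. Overlap of their exons was not examined, and the strand setting of the counting is not given in the sources used here. Whether any reads are shared between them is therefore not known. In ITL against IV both genes were fitted lower, at -0.44 ± 0.25 for Ccl3 and -0.38 ± 0.25 for Ccl4 (edgeR adjusted p = 0.915 for each).

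Ccr1, a receptor of CCL3, was fitted lower in CD45.2 µ against CD45.1 µ, the opposite way to Ccl3, at -0.95 ± 0.29 (edgeR adjusted p = 0.485), from 109, 299 and 148 CPM in CD45.2 µ and 339.5, 420.5 and 300.0 CPM in CD45.1 µ. It did not pass the edgeR test. Marker lists differed in the same contrast: 10 of 10 border-associated macrophage markers were fitted lower in CD45.2 µ, at a summed 1930 to 4368 CPM against 4171 to 6107 CPM in CD45.1 µ. For astrocyte markers 9 of 10 were fitted higher, at 279 to 797 CPM against 135 to 299 CPM, and for microglia markers 9 of 12, at 16549 to 25168 CPM against 15243 to 24532 CPM. The median log2 fold change over all genes there was -0.01. In that contrast edgeR and limma-voom called none of these markers, and DESeq2 called 3 border-associated macrophage markers lower and 3 astrocyte markers and 1 microglia marker higher. Their part in the chemokine levels was not tested.

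The CCR1 ligands Ccl6 and Ccl9 were highest in the ITL library within each population. Ccl6, a chemokine found in rodents, stood at 61.5, 71.1 and 80.4 CPM in the IV libraries (CD45.1 µ first, then CD45.1 TAµ and last CD45.2 µ), at 29.0, 22.8 and 49.8 CPM in the ICV libraries and at 91.8, 82.6 and 93.1 CPM in the ITL libraries. The 3 routes did not overlap, with means of 71.0 ± 9.45, 33.9 ± 14.1 and 89.2 ± 5.71 CPM (SD, n = 3 libraries each). ITL against ICV gave a log2 fold change of 1.34 ± 0.33 (edgeR adjusted p = 0.681), and ICV against IV gave -0.95 ± 0.33 (edgeR adjusted p = 0.429). ITL against IV gave 0.40 ± 0.31 (edgeR adjusted p = 0.922). Ccl6 was the 1 chemokine gene of 10 whose ICV libraries all lay below the IV libraries, where 7.01% of all genes did, and its ITL libraries all lay above the IV libraries, where 4.74% did. The separation of its 3 routes held with totals scaled by TMM factors and with totals without Rn45s. Part of the Ccl6 locus overlaps E230016K23Rik in the same annotation.

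Ccl9, another rodent chemokine, was at 10.3, 37.7 and 23.8 CPM in the IV libraries, with populations in that order, at 11.2, 36.0 and 33.8 CPM in the ICV libraries and at 36.9, 65.3 and 60.6 CPM in the ITL libraries. Within each population the ITL value was the highest, and within each route the CD45.1 µ value was the lowest. The route means were 23.9 ± 13.7, 27.0 ± 13.7 and 54.3 ± 15.2 CPM (SD, n = 3 libraries each), and the fit gave 1.34 ± 0.40 for ITL against IV (edgeR adjusted p = 0.369) and 0.98 ± 0.39 for ITL against ICV (edgeR adjusted p = 0.998). By population, CD45.1 TAµ against CD45.1 µ gave 1.50 ± 0.41 (edgeR adjusted p = 0.499), a difference that DESeq2 called at 1.57 with an adjusted p of 0.0413. CD45.2 µ against CD45.1 µ gave 1.15 ± 0.41 (edgeR adjusted p = 0.486). Without the library labelled ICV CD45.1 µ those edgeR values were 1.29 (adjusted p = 0.979) and 0.92 (adjusted p = 0.549). CD45.1 TAµ against CD45.2 µ gave 0.35 ± 0.38 (edgeR adjusted p = 0.932). On library totals the ITL libraries of Ccl6 and Ccl9 all lay above the ICV libraries, where 6.47% of all genes did, but those of Ccl9 overlapped once totals were scaled by TMM factors or taken without Rn45s. Monocyte markers differed between the same libraries, with 10 of 10 fitted higher in ITL than in ICV and 0 called by edgeR, DESeq2 or limma-voom. They summed to 620 to 1328 CPM against 327 to 424 CPM, and the median log2 fold change over all genes was -0.02. The part of these markers in the Ccl6 and Ccl9 levels was not tested.

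Cxcl2, the neutrophil attractant of the list, had the largest fitted difference between routes. It stood at 862, 936 and 491 CPM in the IV libraries, with populations in that order, at 308, 241 and 509 CPM in the ICV libraries and at 313, 305 and 200.3 CPM in the ITL libraries. All 3 IV values lay above the 3 ITL values, and ICV CD45.2 µ exceeded its IV counterpart. The route means were 763 ± 238, 352 ± 140 and 273 ± 62.9 CPM (SD, n = 3 libraries each). ITL against IV gave a log2 fold change of -1.42 ± 0.32, with an edgeR adjusted p of 0.113. The difference was called with no low-count filter (adjusted p = 0.0350), by DESeq2 (-1.41, adjusted p = 0.00163) and by limma-voom (-1.56, adjusted p = 0.00539), as well as without IV CD45.2 µ or without ICV CD45.2 µ. Over 20 settings its adjusted p ranged from 0.00163 to 0.895. For ICV against IV the fit gave -0.94, and -1.61 (edgeR adjusted p = 0.0332) once ICV CD45.2 µ was left out. Cxcl2 was the 1 chemokine gene of 10 whose ITL libraries all lay below the IV libraries, where 6.84% of all genes did.

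Immediate-early genes, transcription factors and regulators that respond rapidly to many stimuli, were as a sum lower in ITL than in IV libraries, as was Cxcl2. Both were highest in CD45.1 TAµ within IV and lowest in CD45.1 TAµ within ICV. IV CD45.1 µ and IV CD45.2 µ had sums of 32571 and 32539 CPM, with Cxcl2 at 862 and 491 CPM. Within ITL the order was opposite, with sums of 13668, 14776 and 21095 CPM beside Cxcl2 at 313, 305 and 200.3 CPM. In ITL against IV, 10 of 22 fell and none rose in the edgeR test, where 0.21% of all genes fell, among them Fosb (-2.33), Klf2 (-1.77), Egr1 (-1.71), Atf3 (-1.56) and Fos (-1.47). DESeq2 called 13 of the 22 lower and limma-voom 15, beside 0.592% and 0.742% of all genes, but edgeR called none of them without IV CD45.1 TAµ or without ITL CD45.1 µ, 1 without ITL CD45.1 TAµ and 2 without IV CD45.1 µ. The list of 22 also holds the heat shock genes Hspa1a and Hspa1b, which are part of the sum. The summed level of the 22 was 32539 to 47446 CPM in IV, 17286 to 26452 CPM in ICV and 13668 to 21095 CPM in ITL libraries. Of 20 NF-kB feedback and cytokine genes 1 fell in the edgeR test, Tnfaip3 (-1.72, edgeR adjusted p = 0.0043), which encodes an inhibitor of NF-kB signalling. DESeq2 called 4 of the 20 lower (Cd83, Nfkbiz, Tnfaip3 and Zc3h12a), and limma-voom called those 4 and Nfkbid. Their summed level was 6741 to 9168 CPM in IV against 4132 to 4744 CPM in ITL libraries. The 10 neutrophil markers were all fitted lower in ITL than in IV, where the median log2 fold change over all genes was 0.05. None of the 10 was called by edgeR, DESeq2 or limma-voom, and they summed to 505 to 14643 CPM in IV against 1747 to 4742 CPM in ITL. In IV CD45.2 µ, where Cxcl2 was at 491 CPM, 6 of the 10 neutrophil markers had a count. Csf3r held 6494 counts there, nearly all of the sum of 505 CPM. S100a8, Cxcr2, Ngp, Camp and Lcn2 held 1 to 13 counts each, and S100a9 was at 0. Csf3r had 2538 to 10942 counts across the 11 libraries. The part of these lists in the Cxcl2 level was not tested. Cxcr2, the receptor of CXCL2 and itself a neutrophil marker, ranged from 1.00 to 59.5 CPM.

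**Figure D3:**
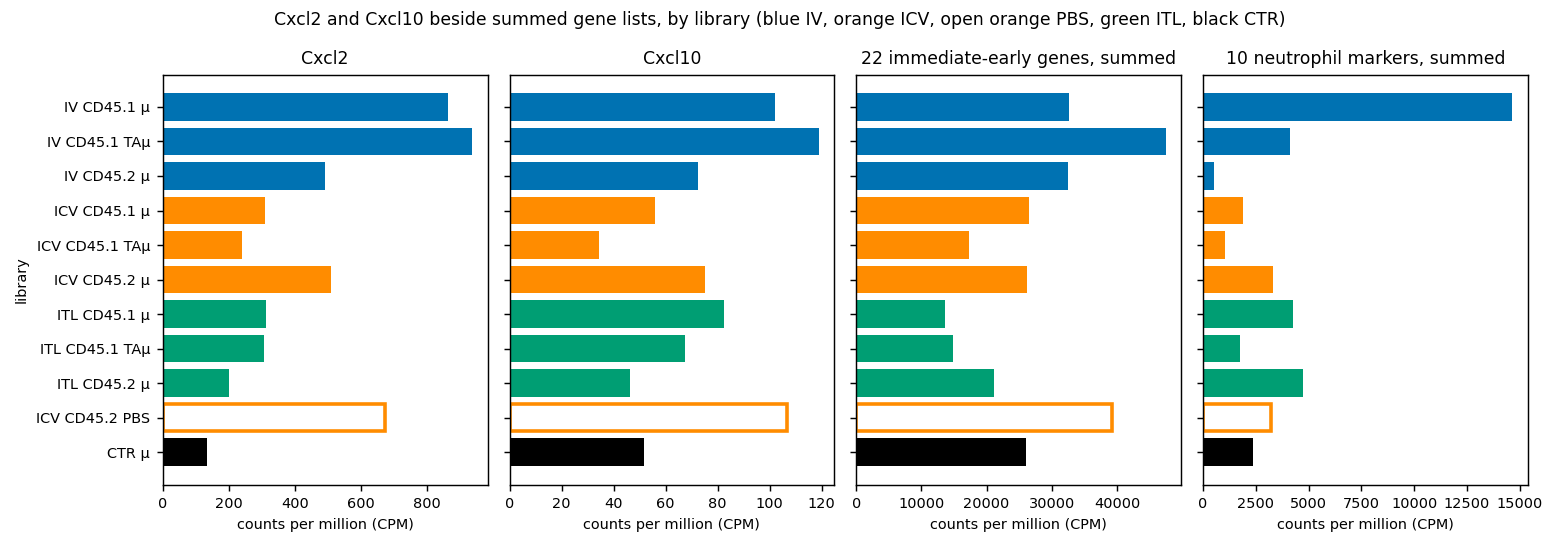
Levels of Cxcl2 and Cxcl10 and the summed levels of 22 immediate-early genes and 10 neutrophil markers in each of the 11 libraries, in CPM (horizontal axes, each from 0). The 3 IV libraries exceed the ICV and ITL libraries of the layout for the immediate-early sum, whereas the neutrophil sum is high in IV CD45.1 µ (14643) and low in IV CD45.2 µ (505).

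Cxcl10, an interferon-inducible T and NK cell attractant, was at 102, 119 and 72.5 CPM in the IV libraries, with populations in that order, at 56.1, 34.4 and 75.3 CPM in the ICV libraries and at 82.5, 67.6 and 46.1 CPM in the ITL libraries. The IV mean was 97.8 ± 23.5 CPM against 55.3 ± 20.4 (ICV) and 65.4 ± 18.3 CPM (ITL; SD, n = 3 libraries each), and the routes overlapped. The fit of ITL against IV gave -0.52 ± 0.36 in the same direction in all 3 populations (edgeR adjusted p = 0.915). Interferon-response genes were fitted lower in the same contrast in 22 of 26, with 0 called by edgeR or DESeq2 and 1 (Rsad2, lower) by limma-voom. Over all genes the median log2 fold change in that contrast was 0.05. The Cxcl10 gene overlaps Art3 in the annotation. Cxcl16, a membrane-anchored ligand, stood at 396, 389 and 288 CPM in CD45.1 µ after IV, ICV and ITL delivery, at 613, 352 and 494 CPM in CD45.1 TAµ and at 361, 383 and 212 CPM in CD45.2 µ. The IV and ITL libraries of CD45.1 TAµ were the 2 highest of the 9, and in each population the ITL value was below the IV value. CD45.1 TAµ against CD45.1 µ gave 0.57 ± 0.25 (edgeR adjusted p = 0.874), and ITL against IV gave -0.43 ± 0.25 (edgeR adjusted p = 0.915). On library totals CD45.1 TAµ overlapped with CD45.1 µ for Cxcl16 and Ccl9, as for the other 8 genes, where 14.2% of all genes did not overlap. With TMM factors applied both genes separated, and with totals without Rn45s Cxcl16 did. The Cxcl16 gene overlaps Zmynd15. Cxcr6, the CXCL16 receptor, was listed at 0 to 0.84 CPM in all 11 libraries. T and NK cell markers summed to 20.9 to 23.4 CPM in CD45.1 TAµ and 4.05 to 8.44 CPM in CD45.1 µ. They summed to 0 to 14.7 CPM in CD45.2 µ and 14.7 CPM in the PBS library. The similar sums in CD45.1 TAµ differed in make-up, with 6 of 11 markers counted after ICV and all 11 after IV and ITL delivery.

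By direction within blocks, the chemokine genes most often kept 1 direction in ITL against IV. With TMM factors, 9 of 10 had the same direction there in all 3 populations, 4 higher (Ccl2, Ccl7, Ccl6 and Ccl9) and 5 lower (Ccl3, Ccl4, Cxcl2, Cxcl10 and Cxcl16), where 31.7% of all genes did, 16.9% higher and 14.9% lower. On library totals 8 of 10 did, with 2 higher (Ccl6 and Ccl9) and 6 lower, and with totals without Rn45s 8 of 10 did, with 4 higher and 4 lower. In the population contrasts 2 (CD45.1 TAµ against CD45.1 µ), 4 (CD45.2 µ against CD45.1 µ) and 3 (CD45.1 TAµ against CD45.2 µ) of 10 did, beside 29.8%, 26.3% and 28.8% of all genes. In ICV against IV and in ITL against ICV 2 of 10 did, beside 23.7% and 27.2%. On library totals these counts were 1, 7 and 4 in the population contrasts, beside 28.4% of all genes for the second, and 1 and 2 in the route contrasts. The median log2 fold change of the 10 genes was -0.34 in ITL against IV, with 0.05 over all genes tested. It was 0.03, -0.12 and 0.18 in the population contrasts (0.06, -0.01 and 0.10 over all genes) and -0.14 and -0.20 in ICV against IV and ITL against ICV (0.06 and -0.02).

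The rest of the chemokine system was mostly low. Of 27 other chemokine ligand genes, 14 passed the low-count filter, and of 26 receptor genes, 15 did. None was called in any of the 6 contrasts by edgeR; the number at an unadjusted p under 0.05 was 0 to 3 ligands and 1 to 4 receptors per contrast. DESeq2 called 0 to 2 ligands per contrast, and it called Pf4 and Ccr1 in CD45.1 TAµ against CD45.2 µ, where limma-voom also called Ccr1. Pf4, a platelet and macrophage CXC chemokine, was the opposite of Ccl4 by population, at 138, 97.5 and 136 CPM in CD45.1 µ after IV, ICV and ITL delivery and at 24.5, 73.3 and 10.8 CPM in CD45.2 µ. Its log2 fold change in CD45.2 µ against CD45.1 µ was -1.76 ± 0.46 (edgeR adjusted p = 0.457), a difference that DESeq2 called. Cxcl1, another CXCR2 ligand, ranged from 0.232 CPM in IV CD45.2 µ to 48.0 CPM in ICV CD45.2 µ and was at 19.9 CPM in IV CD45.1 µ, where Cxcl2 was at 862 CPM. Ccl5, a chemokine of T and NK cells, was at 22.2 CPM in IV CD45.1 TAµ and at 1.26 to 10.1 CPM in the other 8 libraries. Cx3cr1, the fractalkine receptor of microglia, was at 2027 to 3678 CPM in the 9 libraries.

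The CTR µ library lay outside the range of the 9 transplant libraries for 6 of the 10 chemokine genes. It was above all 9 for Ccl3 (773 against at most 487 CPM), Ccl4 (702 against 539.6 CPM) and Ccl9 (100.4 against 65.3 CPM), 2.31-, 2.34- and 2.86-fold the mean of the 9. It was below all 9 for Ccl12 (46.3 against at least 75.5 CPM), Cxcl2 (134 against 200.3 CPM) and Cxcl16 (135 against 212 CPM). Among all genes tested, 5.17% lay above and 6.97% below. Ccl2 (55.0 CPM), Ccl7 (28.9 CPM), Ccl6 (69.5 CPM) and Cxcl10 (51.7 CPM) lay inside the range. These positions were the same with TMM scaling and with totals without Rn45s. Receptor levels in CTR µ were 4883 CPM for Cx3cr1, above the 9 libraries, and 31.8 CPM for Ccr1 and 13.1 CPM for Ccr2, both below them. With 1 control library, no replicate spread is known for these values and no test was made.

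**Figure D4:**
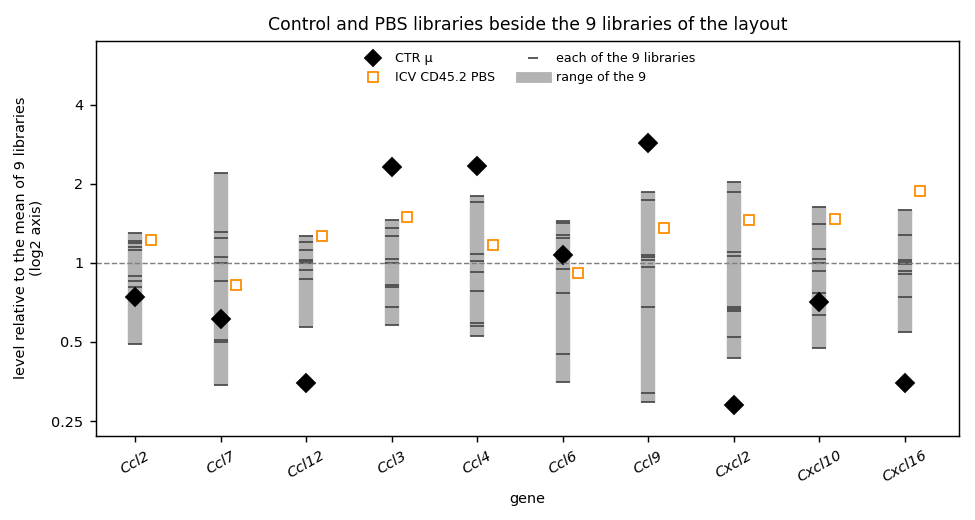
Level of each chemokine gene (horizontal axis) relative to the mean of the 9 transplant libraries (vertical axis, log2-spaced), with the range of the 9 as grey bars, the CTR µ library as diamonds and the ICV CD45.2 PBS library as open squares. CTR µ lies above the bars for Ccl3, Ccl4 and Ccl9 and below them for Ccl12, Cxcl2 and Cxcl16.

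The ICV CD45.2 PBS library lay above all 9 for Cxcl16 (728 against 613 CPM) and narrowly for Ccl3 (501 against 487 CPM), beside 4.15% of all genes. None of the 10 lay below all 9, where 2.44% of all genes did, and it was inside the range for the other 8. Without Rn45s in the totals Ccl3 lay inside as well. Against the ICV CD45.2 µ library, its nearest counterpart by label, Cxcl16 was 1.90-fold (exact 95% interval 1.85 to 1.95), Cxcl10 1.42-fold, Ccl9 1.40-fold and Cxcl2 1.32-fold as high, and Ccl7 was 0.628-fold (0.574 to 0.687). Ccl2, Ccl12, Ccl3, Ccl4 and Ccl6 had ratios of 0.939 to 1.19. All these ratios are on library totals and depend on the scaling. With TMM factors Cxcl16 stood at 719 CPM in the PBS library against 416 CPM, and Cxcl2 at 664 against 553 CPM. Ccl12 (165 against 172 CPM) and Ccl4 (347 against 351 CPM) were then slightly lower in the PBS library. The intervals cover counting error only, not the choice of scaling, and compare 2 libraries, not 2 conditions. Immediate-early genes summed to 39220 CPM in the PBS library, inside the IV range, beside its 672 CPM of Cxcl2.

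Across the 11 libraries, some of the chemokine genes varied together. Pearson r of log2 CPM was 0.870 for Ccl3 and Ccl4, 0.869 for Ccl12 and Cxcl16, 0.832 for Cxcl2 and Cxcl10 and 0.793 for Ccl2 and Ccl7, with Spearman rho of 0.864, 0.727 and 0.891 for the first 3 pairs. The lowest r was -0.634, for Ccl4 and Ccl12 (rho -0.236). Among 8086 genes of at least moderate level, those most like Cxcl2 were Plekhm1 (r = 0.943), Fosl2 (0.937) and Rgs1 (0.933), and those most like Cxcl10 were Mir22hg (0.921), Bcl3 (0.916) and Galt (0.874). Ccl3 was most like Blnk (0.872), Ccl4 (0.870) and Hsp90ab1 (0.863), and Ccl4 was most like Ccdc97 (0.941), Erf (0.936) and Slc25a37 (0.919). Ccl9 was most like Gng2 (0.950), Snord34 (0.942) and Snord32a (0.933), and Cxcl16 most like Ptger4 (0.952), Trim25 (0.946) and Cd74 (0.940). Ccl2 was most like Il1b (0.923), Spats2 (0.923) and Ndufa3 (0.920), Ccl7 like Arl4c (0.911), Cyb5r1 (0.897) and Pccb (0.897), and Ccl12 like Nlrc4 (0.963), Dgkz (0.957) and Serpinb8 (0.944). For Ccl6, 1 predicted gene came first, followed by Capzb (0.909) and Toe1 (0.906). The points share library depth and composition, and these correlations are descriptions without a test.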

How the data were processed

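RNA from sorted mouse brain myeloid cells was sequenced in 11 libraries, 1 per group. Counts as the authors deposited them are whole numbers of reads for each gene symbol, not normalized, from alignment with STAR to mm39 (GRCm39) per the submitters' processing notes. For the annotation, strand setting and read filters, nothing was found in the labels or file headers. Levels are CPM on the library total of 6090589 to 21282823 counts, so a gene with no count is limited to at most 0.141 to 0.493 CPM (3 counts). Contrasts were fitted with edgeR 4.0.16 (R 4.3.3; quasi-likelihood, route plus population, TMM scaling, minimum count 10 and total 15, 4 residual degrees of freedom, biological coefficient of variation 0.842). Genes were called at a Benjamini-Hochberg adjusted p under 0.05, and standard errors were derived from the F statistic. DESeq2 1.42.0, limma 3.58.1 (voom), other scalings and filters, no block, all 11 libraries and each library left out were alternatives. Scripts were tested on simulated data. Fold changes were printed for genes with 1 direction in all 3 blocks or an adjusted p under 0.05, and for a few others chosen after their values were seen (Ccl7 and Cxcl2 in ICV against IV). Genes most like each chemokine gene were the 3 of highest Pearson r with a mean of at least 3 log2 CPM (prior count 2), and predicted genes were not named. The chemokine genes, gene lists and rules were chosen with earlier results of these data known. Nothing says whether libraries came from separate animals. With 1 library per combination, p-values rest on what the additive model leaves over. That residual mixes spread between libraries with any difference in the population effect between routes, and spread between replicates was not measured. Exon lengths and promoters come from GRCm38 and were not joined to the counts by coordinate.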

Additional observations from a re-analysis of the deposited data

Results flagged for a closer look

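In 7 cases 1 block went against the other 2, with each of the 3 differences at least 0.5 on the TMM-scaled log2 CPM scale, a size chosen after seeing the data. Each difference compares 1 library with 1, and the differences between blocks were not tested. In CD45.2 µ against CD45.1 µ, Cxcl2 was higher after ICV (0.97) and lower after ITL (-0.68) and IV (-0.90), and Cxcl10 was higher after ICV (0.67) and lower after ITL (-0.87) and IV (-0.58). In CD45.1 TAµ against CD45.2 µ, 4 genes were lower after ICV and higher after ITL and IV. They were Ccl2 (-0.62 against 0.60 and 1.30), Ccl7 (-0.56 against 1.15 and 1.61), Cxcl2 (-1.02 against 0.79 and 0.94) and Cxcl10 (-1.06 against 0.73 and 0.72). In ITL against ICV, Cxcl10 was lower in CD45.2 µ (-0.91) and higher in CD45.1 TAµ (0.88) and CD45.1 µ (0.63). ICV CD45.2 µ enters all 7 of them, and the library labelled ICV CD45.1 µ, with its high Xist level, enters 3.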

How the results depend on the processing

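Across 19 alternatives to the reported fit, of which 9 left out 1 library, the 22 fold changes with 1 direction in all blocks kept direction and call in 408 cases, became called in 9 and reversed in 1, Ccl12 in ICV against IV (-0.0013 without ICV CD45.2 µ; range over left-out libraries -0.0013 to 0.42). The number of the 10 chemokine genes called went from 0 to 1 with DESeq2 in the 3 population contrasts and in ITL against IV, with limma-voom in CD45.1 TAµ against CD45.2 µ and ITL against IV, and with no filter in ITL against IV. Leaving out 1 library gave 0 to 1 in ICV against IV (1 without ICV CD45.2 µ) and in ITL against IV (1 without IV CD45.2 µ and without ICV CD45.2 µ), and 0 to 0 in the other contrasts. The number of genes called in CD45.1 TAµ against CD45.1 µ was 10, and 18 on library totals alone, 23 with no filter, 2 with a stricter filter, 217 with DESeq2, 17 with limma-voom, 2 with no block and 24 with all 11 libraries. The contrast of CD45.2 µ against CD45.1 µ had 4, and 277 with DESeq2 and 0 with limma-voom, the stricter filter or no block. In CD45.1 TAµ against CD45.2 µ it was 46, and 25 with the stricter filter, 193 with DESeq2, 131 with limma-voom and 29 with no block. In ICV against IV it was 0, and 3 on library totals alone, 8 with no filter, 147 with DESeq2 and 6 with all 11 libraries. In ITL against IV it was 29, and 12 with the stricter filter, 150 with DESeq2, 107 with limma-voom, 13 with no block and 49 without the 2 libraries of fewest genes, a setting chosen after seeing the data. In ITL against ICV it was 0, and 2 with no filter, with all 11 libraries or without those 2 libraries, and 32 with DESeq2. Leaving out 1 library gave 0 to 24, 0 to 29, 5 to 159, 0 to 28, 0 to 35 and 0 to 3 genes in the same order of contrasts. The cause of these differences was not tested. Library totals alone moved the median of all genes by -0.118 in CD45.1 TAµ against CD45.1 µ and -0.124 in ICV against IV, and calls in the first then split 7 higher to 11 lower, where the reported fit had 3 to 7. DESeq2 turned that split to 167 higher and 50 lower, and CD45.2 µ against CD45.1 µ from 0 higher and 4 lower to 233 and 44. It gave 72 to 121 in CD45.1 TAµ against CD45.2 µ (10 to 36 as reported) and 71 to 79 in ITL against IV (1 to 28). Of 220 rescaled chemokine levels, 24 moved by more than 1 SD. The reported contrasts are blocked by route or population, and no block by replicate or animal could be added because each combination has 1 library and the labels carry no such numbers. With 1 library per combination, precision rests on 4 residual degrees of freedom, and the CTR µ and PBS libraries have counting error only.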
